A study of Homo sapiens with 9 samples.

Results

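miR-191 and miR-425 are a pair of microRNAs (miRNAs) cut from neighbouring hairpins of 1 primary transcript, and the 4 mature arms of the pair, hsa-miR-191-5p, hsa-miR-191-3p, hsa-miR-425-5p and hsa-miR-425-3p, were followed through an RNA trapping experiment. The arms were taken by name, and all 4 were found among the 2652 mature miRNA names of the count table, each at 1 locus. Small RNA came from lysates of ES-2, a cell line established from a human ovarian carcinoma and labelled wild type and untreated for every library. In miTRAP, a bait RNA with MS2 loops is held on a resin by an MS2-binding fusion protein, incubated with lysate and eluted with what it retained, and the question was which miRNAs associate with the 3'UTR of PD-L1, the immune checkpoint ligand encoded by CD274. There were 3 replicates each of the lysate (input), of the elution from an MS2 control RNA (MS2 control, here the MS2 trap) and of the elution from the PD-L1 3'UTR bait (PD-L1 3'UTR, here the PD-L1 trap). The methods give a much larger amount of the PD-L1 3'UTR bait than of the MS2 control RNA. The effect of amount cannot be told apart from that of sequence. Only mature miRNAs were counted, so the cell line was not checked against protein-coding markers.

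A miRNA hairpin is cut by Drosha and Dicer into a duplex, of which usually 1 strand, the guide, is loaded into an Argonaute protein while the other, the passenger, is degraded. The guide finds target mRNAs, most often in their 3'UTRs, by pairing through its seed at bases 2 to 8. miR-191-5p and miR-425-5p are the usual guides of this pair, and miR-191-5p is found in most human tissues.

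Of the 4 arms, 3 matched the mature sequences of RefSeq (GRCh38.p14), and these are shown because the seed and the arm distinguish the strands compared throughout, with the seed in capitals and the 5′ end first.
miR-191-5p: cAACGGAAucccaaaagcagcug
miR-191-3p: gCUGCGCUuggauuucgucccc
miR-425-3p: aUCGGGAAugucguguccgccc
They lie on the reverse strand at chr3:49020672-49020694 for miR-191-5p, chr3:49020631-49020652 for miR-191-3p and chr3:49020159-49020180 for miR-425-3p. The 3 seeds differ from each other, and none is shared with another of the 2370 mature miRNA names in the RefSeq table. The MIR191 hairpin (chr3:49020618-49020709) and the MIR425 hairpin (chr3:49020148-49020234) are separated by 383 bases within the bounds of DALRD3 (chr3:49015488-49021505), on the same strand. In GENCODE's annotation of GRCh37, both hairpins lie in intron 1 in 4 of the 15 DALRD3 transcripts, and no DALRD3 exon overlaps either. Both lie outside the other 11 transcripts, among them DALRD3-202, the transcript marked canonical.

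Input libraries held 3794799 to 5983577 miRNA counts, MS2 trap libraries 1156261 to 2236535 and PD-L1 trap libraries 672824 to 1237652, and 408 miRNAs passed the filter on low counts. Abundances are CPM, that is counts scaled to libraries of equal size, after TMM scaling, which assumes most miRNAs do not change, and a floor of 3 counts was worth between 0.676 and 4.03 CPM (counting error only). In the 3 comparisons made below, from 60.0% to 69.9% of the 408 miRNAs were called changed by edgeR at an adjusted p below 0.05. The assumption is thus not met as stated, and values under another scaling are given below.

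The cluster changed its makeup between the traps while its total share of the trapped miRNAs differed by less than the spread between replicates. Together the 4 arms took 0.206% ± 0.048 (SD, n = 3) of all counts in the input, 0.406% ± 0.036 in the MS2 trap and 0.409% ± 0.014 in the PD-L1 trap, without TMM scaling. The total was higher in each of the 6 trapped libraries, from 0.379% to 0.447%, than in any input library, from 0.173% to 0.261%, and the trapped groups overlapped. On that scale the median log2 fold change of the 408 tested miRNAs over the input was also up, at 0.65 in the MS2 trap and 0.60 in the PD-L1 trap. The higher total is therefore not read as particular to the cluster. Within the cluster, miR-191-5p supplied 52.9% ± 9.23 of the reads in the input, 70.2% ± 2.15 in the MS2 trap and 30.7% ± 3.87 in the PD-L1 trap. miR-425-5p supplied 44.6% ± 8.97, 28.5% ± 2.52 and 67.3% ± 3.47, respectively.

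**Figure D1:**
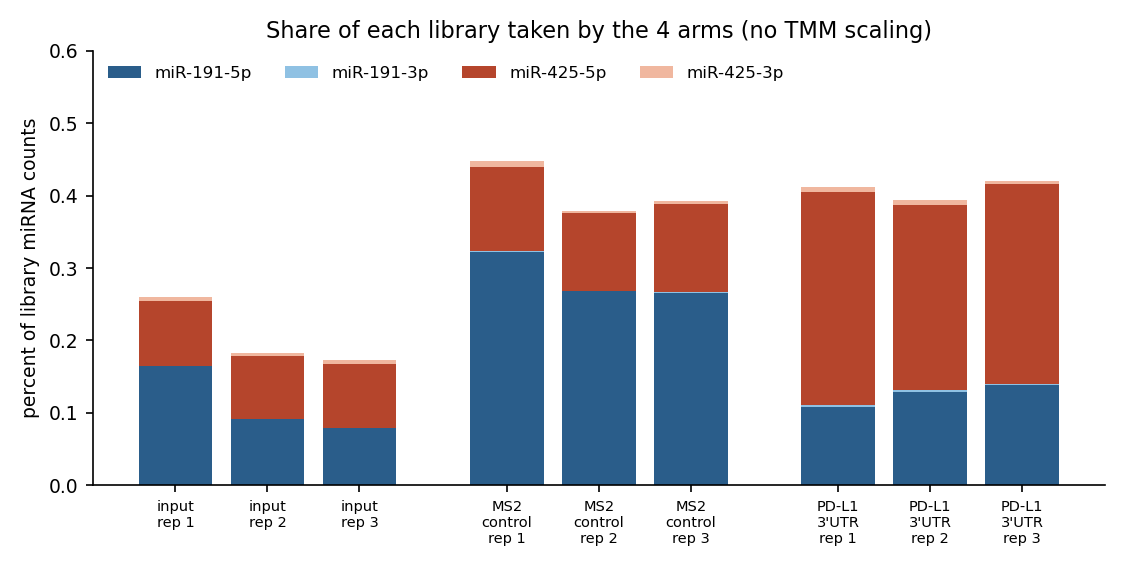
Stacked bars give the percent of all miRNA counts of each of the 9 libraries taken by miR-191-5p, miR-191-3p, miR-425-5p and miR-425-3p, with no TMM scaling. The MS2 trap and PD-L1 trap bars are of similar height, from 0.379% to 0.447%, but miR-191-5p fills most of the former and miR-425-5p most of the latter.

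The order of the guides was opposite in the traps in every replicate. There were 1.83, 1.05 and 0.879 counts of miR-191-5p per count of miR-425-5p in input replicates 1, 2 and 3. The ratio was 2.76, 2.51 and 2.18 in the MS2 trap libraries and 0.367, 0.506 and 0.501 in the PD-L1 trap libraries. The 3 groups did not overlap, and both guides come from the same library, so library scaling cancels. On the log2 scale, with 0.5 counts added, the ratio was lower in the PD-L1 trap than in the MS2 trap by 2.45, or 5.45-fold (-1.14 ± 0.263 against 1.30 ± 0.171, SD, n = 3 each). The two-sided exact permutation p was 0.10 for this comparison, for the PD-L1 trap against the input (difference of -1.40) and for the MS2 trap against the input (difference of 1.05), which is the smallest p that 3 against 3 allows. The permutation test can therefore not pass 0.05 here, whatever the size of the difference.

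miR-425-5p was the arm with the smallest adjusted p between the traps. It held 1200, 1110 and 1206 CPM in input replicates 1 to 3. The MS2 trap libraries held 938, 949 and 1068 CPM and the PD-L1 trap libraries 2577, 2309 and 2463 CPM. All 3 PD-L1 trap libraries were above the 6 others, and the MS2 trap libraries lay just below the input libraries. By edgeR's quasi-likelihood test with Benjamini-Hochberg adjustment over 408 miRNAs, miR-425-5p rose 2.49-fold over the MS2 trap (log2 fold change 1.31 ± 0.12 with its SE, adjusted p of 4.46e-06). Over the input it rose 2.09-fold (log2 fold change of 1.06 ± 0.12, adjusted p of 3.08e-05). Its rank by counts among all miRNA names moved from 57 to 59 in the input and from 52 to 56 in the MS2 trap to between 43 and 46 in the PD-L1 trap. In size the rise was not among the leading ones, and it stood at place 103 of 408 by log2 fold change over the MS2 trap and at place 119 over the input.

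miR-191-5p went the other way between the traps. It held 2197, 1169 and 1060 CPM in input replicates 1 to 3, so that replicate 1 stood apart from the others. In the MS2 trap it held 2585, 2380 and 2327 CPM, above every other library, and in the PD-L1 trap 947, 1169 and 1233 CPM. By the same edgeR test it was 2.18-fold lower than in the MS2 trap, with a log2 fold change of -1.12 ± 0.25 and an adjusted p of 0.00280. Against the input the PD-L1 trap libraries overlapped the input libraries, and the log2 fold change was -0.40 ± 0.25 (adjusted p of 0.175, 95% interval from -0.96 to 0.15), which passed the threshold only without input replicate 3 (-0.74) among the fits that omitted a library. The MS2 trap itself was above the input in miR-191-5p, with a log2 fold change of 0.72 ± 0.25 (adjusted p of 0.0241). With each library left out in turn, that call was lost in 6 of 9 fits, with values from 0.40 without input replicate 3 to 1.01 without input replicate 1. The other lost calls were 0.59 without input replicate 2, 0.58 and 0.56 without MS2 trap replicate 1 or 3, and 0.63 and 0.65 without PD-L1 trap replicate 2 or 3.

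**Figure D2:**
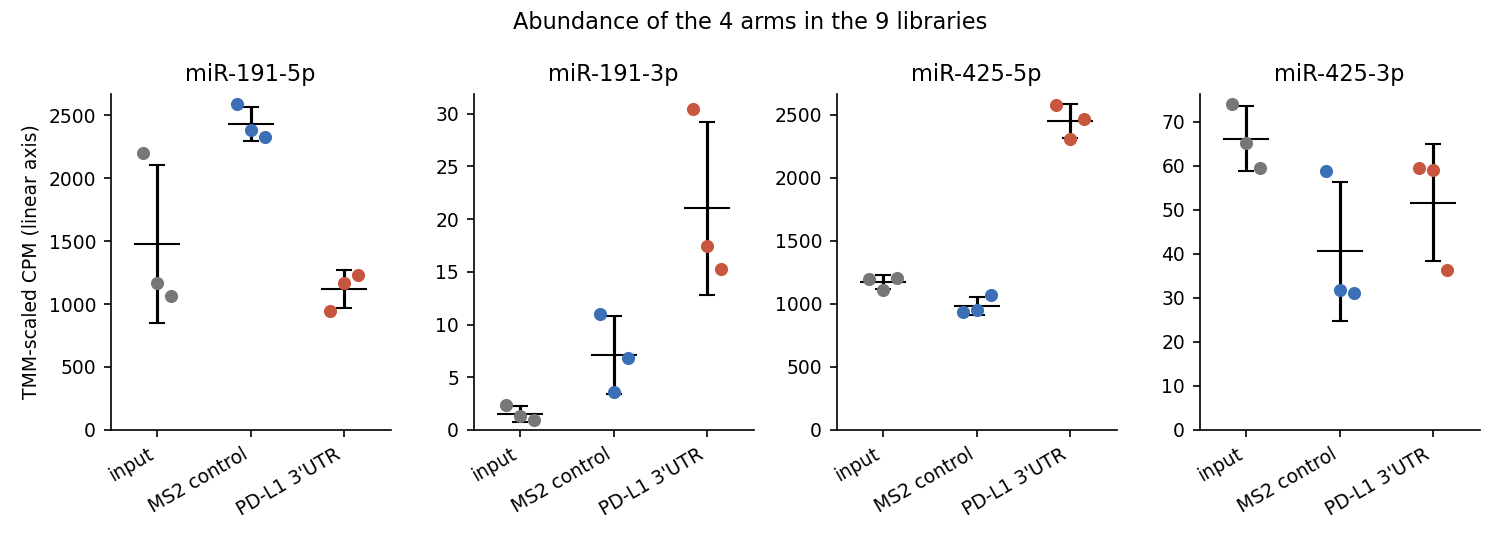
Points are TMM-scaled CPM of each arm in the 9 libraries on linear axes that start at 0, with a bar at the mean and whiskers of 1 SD (n = 3). miR-425-5p stands at 2309 CPM or more in the PD-L1 trap libraries and at 1206 CPM or less elsewhere, while miR-191-5p is highest in the MS2 trap.

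The passenger arms were rarer, and their counts limit what can be said of them. miR-191-3p had 9, 4 and 4 counts in the input libraries, 17, 9 and 9 in the MS2 trap libraries and 43, 13 and 21 in the PD-L1 trap libraries. In CPM these were 2.37, 1.35 and 0.901 in the input, 11.0, 3.57 and 6.81 in the MS2 trap and 30.4, 17.4 and 15.2 in the PD-L1 trap. The groups did not overlap and were ordered input, MS2 trap, PD-L1 trap. The filter asked for about 8.05 unscaled CPM, which 3 PD-L1 trap libraries, 1 MS2 trap library and 0 input libraries reached. miR-191-3p was thus tested because of its level in the group where it is high. Its adjusted p values describe these libraries and are not taken as support for a rise.

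Under that limit, miR-191-3p stood 3.04-fold above the MS2 trap (log2 fold change of 1.61 ± 0.53, SE, edgeR adjusted p of 0.0220). A fit with no filter rests on the same counts and is no separate support. There the log2 fold change was nearly the same, with an SE of 0.60 and an edgeR adjusted p of 0.0388. The threshold was missed without input replicate 2 (1.45), MS2 trap replicate 2 (1.21), MS2 trap replicate 3 (1.57) or PD-L1 trap replicate 1 (1.25). Over the input it was 13.4-fold higher in the PD-L1 trap (log2 fold change of 3.75 ± 0.58, adjusted p of 0.000246) and 4.41-fold higher in the MS2 trap (2.14 ± 0.59, adjusted p of 0.00796). These folds rest on the 4 to 9 counts of each input library.

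miR-425-3p did not pass the threshold in any comparison in the fit reported here. It held 73.9, 65.1 and 59.5 CPM in the input, 58.8, 31.7 and 31.0 CPM in the MS2 trap and 59.5, 59.0 and 36.3 CPM in the PD-L1 trap. The trapped groups overlapped, with a log2 fold change of 0.34 ± 0.31 (SE, edgeR adjusted p of 0.366, 95% interval from -0.35 to 1.04). With single libraries left out it ranged from 0.17 without MS2 trap replicate 2 to 0.71 without MS2 trap replicate 1, and did not pass the threshold. Against the input it stood at -0.36 ± 0.31 (adjusted p of 0.314) in the PD-L1 trap, or from -0.63 without input replicate 3 to -0.23 without PD-L1 trap replicate 3, and at -0.71 ± 0.31 (adjusted p of 0.0608) in the MS2 trap, which lay below the input in 3 of 3 libraries. The last value passed the threshold with no filter on low counts (-0.99), with only the groups compared (-0.74), with a replicate block (-0.76), without input replicate 3 (-0.94), without MS2 trap replicate 1 (-1.17) and without PD-L1 trap replicate 1, 2 or 3 (-0.79, -0.80 and -0.78).

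miR-191-3p is left out of counts over the cluster, because it was tested through the group where it is high. Of the other 3 arms, 1 rose and 1 fell over the MS2 trap, where 31.4% of the 408 miRNAs rose, 28.7% fell and 60.0% did either. Over the input, 1 rose in the PD-L1 trap and 0 fell, where 34.1% of all miRNAs rose, 32.4% fell and 66.4% did either. That count of 0 was the same at an unadjusted p under 0.05 and with DESeq2. In the MS2 trap against the input 1 rose and 0 fell, where 32.8% rose, 37.0% fell and 69.9% did either, and 1 arm was lower at an unadjusted p under 0.05 and 0 with DESeq2. Groups did not overlap in 2 of these 3 arms between the traps (65.7% of all miRNAs), in 2 of 3 over the input in the PD-L1 trap (74.8%) and in 3 of 3 in the MS2 trap (75.5%). In the PD-L1 trap against the input 1 of the 2 was miR-425-3p, nearly a tie. Its highest PD-L1 trap library had 59.469 CPM and its lowest input library 59.476 CPM. With so few members, nothing particular to the cluster is read from these counts. The 3 comparisons share libraries, so their values are given side by side and not as independent evidence.

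Of the directions against the input 3 depended on the scaling, whereas those of the 4 arms against the MS2 trap did not. Scaling by library totals alone, without TMM, lifted the median of all 408 miRNAs by 0.57 (log2) for the PD-L1 trap and by 0.63 for the MS2 trap against the input. The share of calls that were higher moved from 51.3% to 68.3% and from 47.0% to 65.7%. miR-191-5p then stood at 0.17 and miR-425-3p at 0.21 over the input in the PD-L1 trap, neither past the threshold, and miR-425-5p in the MS2 trap turned from -0.25 ± 0.12 (SE, edgeR adjusted p of 0.0832) to 0.38 (adjusted p of 0.0138). With TMM scaling the latter passed the threshold on the lower side without input replicate 1 (-0.35) or 3 (-0.39), MS2 trap replicate 3 (-0.48) or PD-L1 trap replicate 1 (-0.34), 2 (-0.34) or 3 (-0.32). Relative to the median of all miRNAs the 3 values were -0.44, -0.40 and -0.27. The rise of miR-425-5p over the input in the PD-L1 trap was 1.03 relative to that median under both scalings. Between the traps library totals gave 1.26 for miR-425-5p and -1.19 for miR-191-5p, close to the TMM values.

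**Figure D3:**
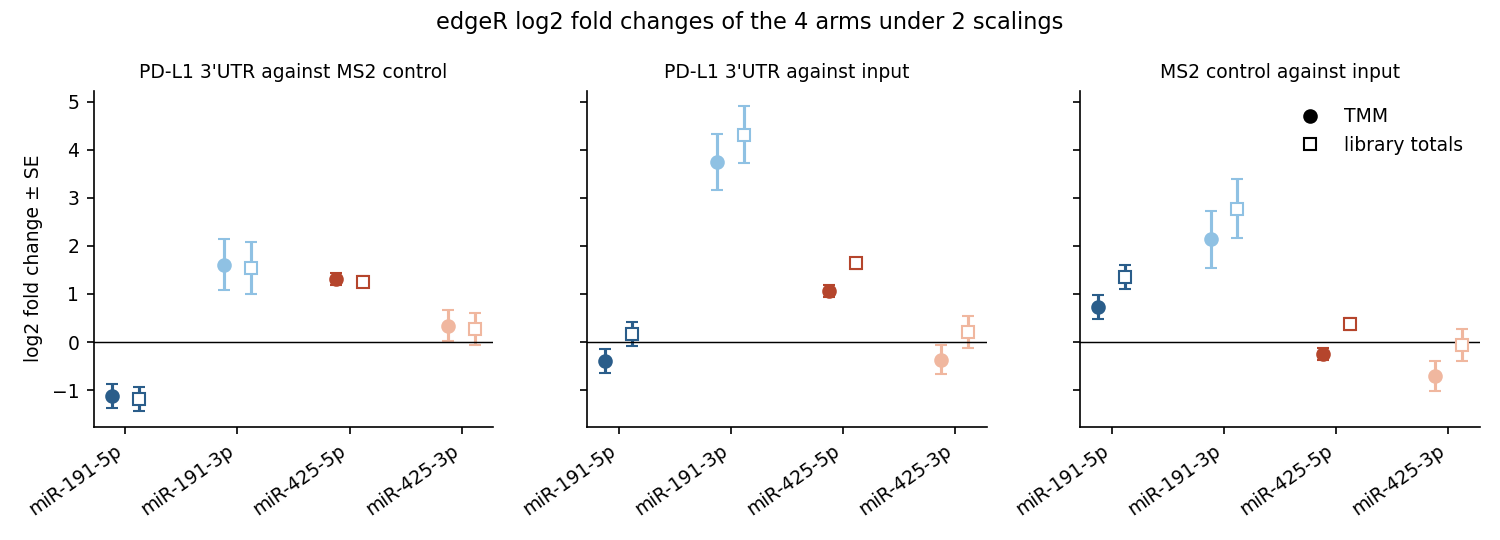
Log2 fold changes of the 4 arms in the 3 comparisons, with whiskers of 1 SE from edgeR, filled circles for TMM scaling and open squares for library totals. The scalings nearly coincide for the PD-L1 trap against the MS2 trap, and library totals lie higher against the input, where the median of all miRNAs shifts by 0.57 and 0.63.

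The hairpins also differed in how their arms were balanced, a measure in which the library scaling cancels. The 3p arm made up 0.103% ± 0.016 (SD, n = 3) of the miR-191 hairpin reads in the input, 0.288% ± 0.137 in the MS2 trap and 1.94% ± 1.03 in the PD-L1 trap. For miR-425 the same share was 5.35% ± 0.577, 3.99% ± 1.67 and 2.07% ± 0.546. The mean 3p share was thus highest in the PD-L1 trap for miR-191 and lowest there for miR-425.

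The log2 ratio of 5p to 3p counts of miR-191 was 9.78, 9.59 and 10.03 in the input, 7.84, 9.30 and 8.34 in the MS2 trap and 4.94, 6.01 and 6.31 in the PD-L1 trap. The PD-L1 trap libraries lay below all others. limma, fitted over the 101 hairpins with both arms tested, gave a difference of -2.74 ± 0.63 (SE, adjusted p of 0.000933) between the PD-L1 trap and the MS2 trap and of -4.05 ± 0.63 (adjusted p of 2.92e-05) against the input. These differences carry the limit given for miR-191-3p, which had 4 to 9 counts in each input library and passed the filter through the PD-L1 trap. Their adjusted p values are therefore not taken as support for a shift. The MS2 trap differed from the input by -1.31 ± 0.63, which did not pass the threshold (adjusted p of 0.0738) unless MS2 trap replicate 2 was left out (-1.71).

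For miR-425 the log2 ratio was 4.02, 4.09 and 4.34 in the input, 3.99, 4.89 and 5.09 in the MS2 trap and 5.43, 5.27 and 6.07 in the PD-L1 trap. Here the PD-L1 trap libraries lay above all others. The difference was 0.93 ± 0.34 (SE, limma adjusted p of 0.0212) over the MS2 trap, a call lost without MS2 trap replicate 1 (0.60) or PD-L1 trap replicate 3 (0.69), and 1.44 ± 0.34 (adjusted p of 0.00137) over the input. Against the input the MS2 trap differed by 0.51 ± 0.34 (adjusted p of 0.192), or by 0.84 and past the threshold without MS2 trap replicate 1. Such shifts were common, since 70.3% of the 101 hairpins passed the threshold between the traps, 32.7% toward 3p and 37.6% toward 5p, and by size miR-425 took place 78. Against the input, 69.3% passed it in the PD-L1 trap, 30.7% toward 3p and 38.6% toward 5p, where miR-425 took place 64. In the MS2 trap against the input 68.3% passed it, 33.7% toward 3p and 34.7% toward 5p, and neither hairpin of the cluster did.

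**Figure D4:**
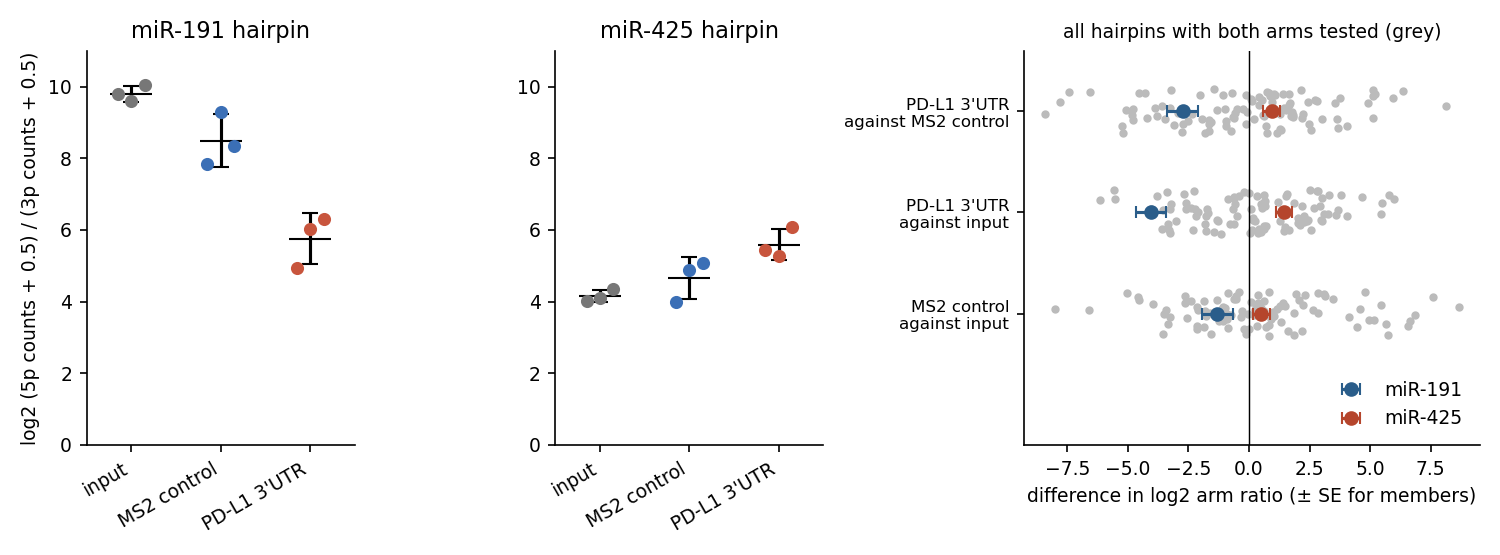
The left and middle panels plot the log2 ratio of 5p to 3p counts, with 0.5 counts added, in each library for the miR-191 and miR-425 hairpins, with the mean and whiskers of 1 SD (n = 3). The right panel plots the difference of that ratio for all 101 hairpins in grey, spread vertically for legibility, with miR-191 and miR-425 in colour and whiskers of 1 SE, and shows miR-191 to the left of 0 and miR-425 to the right in all 3 comparisons.

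Matches to the seeds were sought in the 3'UTR of CD274, which holds 2692 bases in transcript CD274-202 of GENCODE. The extent of the bait was not compared with it, and the search covered the 3 arms printed above and not miR-425-5p. On the strand of the transcript, the 6-base match to seed positions 2 to 7 was TCCGTT for miR-191-5p, GCGCAG for miR-191-3p and TCCCGA for miR-425-3p, and each had 0 occurrences. In the first 2692 bases of the 4186 annotated 3'UTRs of at least that length, these letters occurred in 11.2%, 13.6% and 16.8%. The absence says only that these letters are not in this stretch.

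The miRNAs whose abundance followed that of the guides most closely differed between them. Over the log2 CPM of the 9 libraries, which form 3 groups and share one scaling, miR-425-5p was most like miR-106a-5p, miR-18a-5p, miR-18b-5p, miR-106b-5p and miR-542-3p, with Pearson's r from 0.985 to 0.990. Their differences between the traps were larger, as in miR-106b-5p, with 122 CPM in the MS2 trap and 24923 CPM in the PD-L1 trap. miR-18b-5p was listed at 0 in all MS2 trap libraries, with 0.238 CPM in the input and 8.64 CPM in the PD-L1 trap. It thus passed the filter only through the group where it is high and lay near the floor, so its r is not taken as support for a likeness. miR-191-5p was most like let-7a-5p, let-7e-5p, miR-330-3p, miR-454-5p and miR-1292-5p, with r from 0.883 to 0.900. let-7a-5p had 21108 CPM in the input, 69586 CPM in the MS2 trap and 7434 CPM in the PD-L1 trap. Between miR-191-5p and miR-425-5p themselves r was -0.71, and all these coefficients describe the 9 libraries only.

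Other miRNAs that lie in introns of protein-coding genes were listed for comparison, by their guide arms. Of 31 listed, 28 were tested, and between the traps 17 rose, 5 fell and 6 did not pass the threshold, where 31.4% of all 408 miRNAs rose and 28.7% fell. The median log2 fold change was 0.76 against 0.02 over all miRNAs. The largest values were 7.67 ± 0.25 (SE) for miR-106b-5p, 5.26 ± 0.18 for miR-93-5p and 4.44 ± 0.38 for miR-15b-5p. The lowest were -1.26 ± 0.34 for miR-502-3p, -1.20 ± 0.33 for miR-500a-3p and -1.04 ± 0.12 for miR-26a-5p. Guides of 1 host gene lay apart in some cases and close in others, as seen in examples picked after their values were known. miR-25-3p, which shares its MCM7 intron with miR-106b and miR-93, stood at -0.19 ± 0.14 (edgeR adjusted p of 0.253). miR-224-5p and miR-452-5p, both in GABRE, stood at 0.80 ± 0.19 and 0.90 ± 0.27. Over the input 8 of the 28 rose and 11 fell, with a median of -0.16, against 34.1% and 32.4% of all miRNAs and an overall median of 0.04. In the MS2 trap against the input 2 rose and 20 fell, with a median of -1.39, against 32.8% and 37.0% of all miRNAs and an overall median of 0.02. There miR-191-5p, at 0.72, and miR-425-5p, at -0.25, both lay above the middle of the list. Between the traps miR-425-5p, at 1.31, lay above the middle, and miR-191-5p, at -1.12, lay below all listed guides but miR-500a-3p and miR-502-3p. Over the input in the PD-L1 trap miR-425-5p, at 1.06, lay above the middle and miR-191-5p, at -0.40, below it.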

How the data were processed

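The 9 small RNA libraries, 3 per group, were grouped by their titles, and each column was matched by the name in the sample description. The deposited file holds raw counts per mature miRNA locus. The labels list cutadapt 1.18, Bowtie2 2.2.6, featureCounts 1.6.3 and hg38, and per the methods the authors used these to trim, map and count reads on miRBase miRNAs. These steps leave reads shared by similar miRNAs uncertain, but all 4 arms have 1 locus. The methods speak of biological triplicates, and the labels name no separate cultures, so p values measure the spread between these libraries.

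Here, reads were summed over the loci of a name (2883 rows, 2652 names) and filtered by filterByExpr. edgeR 4.0.16 in R 4.3.3 was fitted to all 9 libraries (TMM, glmQLFit, glmQLFTest, two-sided, Benjamini-Hochberg over 408 miRNAs, threshold 0.05). SE is the log2 fold change over the root of F. Arm ratios were fitted by limma 3.58.1 over 101 hairpins, with the abundance of the lower arm as variance trend, and the guide ratio was tested by exact permutation (scipy 1.17.1). The procedures were tested on simulated counts. Replicates of each group all differed by more than counting error, and replicate 1 stood furthest apart in each group. Chi-square per degree of freedom was 109 to 244 for pairs with replicate 1 and 12.5 to 39.0 for replicates 2 and 3.

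The members and lists were chosen with earlier results of these data known. The naming rule takes the 4 arms, the 5 miRNAs most correlated with each 5p arm, the neighbours of each arm in the input, the 3 largest and 3 lowest of the intronic list and any miRNA sharing a seed. Alternatives were DESeq2 size factors, library totals, DESeq2 1.42.0, no filter, a mean of 10 CPM, separate loci, only the groups compared, a replicate block, leaving out each library and, for ratios, other pseudocounts. No column of other samples was present.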

Additional observations from a re-analysis of the deposited data

How the results depend on the processing

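The rise of miR-425-5p over the MS2 trap and over the input in the PD-L1 trap and the fall of miR-191-5p against the MS2 trap kept their direction and call under every alternative run. The values of miR-191-3p over the input and the arm ratios built on it did so in the PD-L1 trap too. This arm passed the filter through the group where it is high, and no alternative for the arm ratios went without a filter. These unchanged calls are therefore not taken as support. With library totals 3 values turned: miR-191-5p over the input to 0.17, miR-425-3p over the input to 0.21, and miR-425-5p in the MS2 trap against the input to 0.38. The alternative's construction shows the cause, since it shifts all miRNAs. With no filter, miR-191-5p passed the threshold over the input at -0.67, so that 1 arm was called lower, beside 201 of 1500 miRNAs. It no longer passed it in the MS2 trap against the input, at 0.44. With miR-191-3p left out of the count, no arm was then called higher, beside 153 of 1500 miRNAs. miR-425-3p in the MS2 trap against the input passed the threshold at -0.99 with no filter, at -0.74 with only the groups compared and at -0.76 with the replicate block. Each gave 1 arm called lower, beside 208 of 1500, 166 of 465 and 147 of 408 miRNAs, respectively. The cause was not tested. Libraries of the same replicate number had correlations of deviations from -0.23 to 0.11 and were not taken as pairs. Between the traps these correlations were small, at 0.11, 0.07 and 0.10, but lay above those of unlike numbers, from -0.08 to 0.02. The block changed no other call of the 4 arms and left 126 and 117 of all miRNAs higher and lower between the traps.

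Leaving out 1 library gave from 1.21 to 2.06 for miR-191-3p over the MS2 trap, from -0.74 to -0.14 for miR-191-5p over the input and from 0.40 to 1.01 for it in the MS2 trap against the input. The last comparison gave from -1.17 to -0.54 for miR-425-3p and from -0.48 to -0.21 for miR-425-5p, which passed the threshold in 5 and 6 of 9 fits. These fits tested from 430 to 479 miRNAs. With miR-191-3p left out of the counts, miR-425-5p was the only arm called higher over the MS2 trap, and in every fit, beside 118 to 138 of all miRNAs. In the MS2 trap against the input only miR-191-5p was called higher, a call lost in 6 of 9 fits, beside 117 to 146 of all miRNAs. Arms called lower numbered from 0 to 1 over the input, beside 129 to 159, and from 0 to 2 in the MS2 trap against the input, beside 143 to 170. Nothing particular to the cluster is read from these counts. The arm ratio difference ranged from 0.60 to 1.15 for miR-425 between the traps, and in the MS2 trap against the input from -1.71 to -0.98 for miR-191 and from 0.29 to 0.84 for miR-425. Low counts limit miR-191-3p most.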

Other observations

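The miRNAs next to each arm in input abundance moved in various ways between the traps, by edgeR's log2 fold change over the MS2 trap. Beside miR-191-5p, miR-101-3p rose (1.59 ± 0.16, SE) and miR-27a-5p fell (-0.88 ± 0.27). Beside miR-425-5p, miR-361-3p fell (-2.89 ± 0.32), from 370 to 50.0 CPM, and miR-199a-5p had 0.35 ± 0.19 (adjusted p of 0.134). Beside miR-425-3p, miR-760 fell (-3.01 ± 0.26) and miR-330-5p had -0.03 ± 0.24 (adjusted p of 0.912). Beside miR-191-3p, let-7c-3p had 0.79 ± 0.39 (adjusted p of 0.104) and miR-3605-5p fell (-3.66 ± 0.98), the latter on few counts. let-7c-3p had 1.78 CPM in the input, 22.3 CPM in the MS2 trap and 38.8 CPM in the PD-L1 trap. miR-3605-5p had 1.41, 12.1 and 1.34 CPM, respectively. Only miRNAs past the filter on low counts were taken as neighbours. Like miR-191-3p, both could pass it only through trapped groups, for miR-3605-5p the MS2 trap. Their rises over the input, and the fall of miR-3605-5p between the traps, are therefore not taken as support for a likeness or a contrast.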
